A study of Homo sapiens with 4 samples.

Results

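The genes described here are 10 regulators and targets of transforming growth factor beta (TGF-beta) and bone morphogenetic protein (BMP) signalling: ID1, ID2, ID3, BAMBI, SMAD6, SMAD7, PMEPA1, SKI, SKIL and TGIF1. They were picked out by symbol, among 14257 genes on 14297 gene probes, with earlier results of these data known. Each had 1 probe, and all 10 passed the filter on dim probes, which asks that a channel clear the background on 2 or more arrays. PMEPA1 is listed under its older name, TMEPAI, and was found through its transcript accession.

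Human K562 erythroleukemia cells were treated for 4 h with AC-1041, a thalidomide analog, and set against control cells of the same line. The sample labels call the control cells untreated, whereas the methods name a DMSO vehicle. The labels give no dose, while the methods state one for the cultures used in gene expression work. Every one of the 4 two-colour Agilent arrays received RNA of both groups; the treated RNA carried Cy5 on the first pair (arrays 1 and 2) and Cy3 on the second (arrays 3 and 4). Every value below is a ratio of treated to control cells on the log2 scale unless it is called an intensity, and the arrays were taken as 4 replicates although nothing says which culture went on which array.

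Ligands of the TGF-beta family bind pairs of serine/threonine kinase receptors, which phosphorylate SMAD proteins that then enter the nucleus with SMAD4 and switch genes on or off. The activin and TGF-beta branch works through SMAD2 and SMAD3, and the BMP branch through SMAD1, SMAD5 and SMAD9. ID genes are among the best known direct BMP targets, and their products are helix-loop-helix proteins without a DNA-binding basic region, which tie up E proteins and so hold back differentiation factors such as the TAL1 complex of red cell precursors. BAMBI, SMAD6, SMAD7, PMEPA1 and SKIL are induced by the pathway and act back on it as brakes, while SKI and TGIF1 are repressors of SMAD-driven transcription. Activins and BMPs are also known to act on erythroid cells.

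Several properties of the arrays bear on all values. No spot was saturated. Negative control spots scattered widely on arrays 1 and 2 (SD 226 to 308 intensity units over both channels) and little on arrays 3 and 4 (SD 27.8 to 40.5). Fewer probes were well above background on arrays 1 and 2 (5941 to 7403 per channel) than on arrays 3 and 4 (8982 to 9515), so the effect of dye orientation and that of array quality cannot be told apart. Over the 8852 tested probes, arrays sharing an orientation correlated (0.81 for the Cy5 pair and 0.94 for the Cy3 pair), and arrays of opposite orientation did so weakly and negatively, from -0.29 to -0.12. The fit (limma, with a treatment and a dye term) therefore rests its standard error (SE) on the spread within each orientation, and the SD given here covers all arrays. A two-sided exact sign-flip permutation test on 1 gene has a smallest possible p of 0.13 with 4 arrays and of 0.25 with 3.

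After AC-1041, 5 of the 10 genes were lower and 2 were higher at a limma adjusted p under 0.05 (Benjamini-Hochberg over all tested probes). The lower ones were ID1, ID2, ID3, BAMBI and SMAD7, against 13.0% of all tested probes called lower. The higher ones were SKI and SKIL, against 24.3% of tested probes called higher. Of those called, 4 genes (ID1, ID2, ID3 and BAMBI) were below 0 on every array that measured them, against 6.62% of tested probes that were called lower with that agreement. SKI and SKIL were above 0 on every array, against 13.4% of tested probes. Their median log2 ratio was -0.20, beside 0.02 over all tested probes. Without array 3 or array 4, when ID1 could not be fitted, 3 of 9 genes were lower and none higher (4 lower in both, and 2 or 1 higher, at an unadjusted p under 0.05), while the probes called fell to 444 lower and 1244 higher without array 3 and to 283 and 1010 without array 4. The median of the 10 genes ran from -0.21 to -0.04 when each array was left out in turn, being -0.07 without array 2 and -0.04 without array 4, and was -0.10 with arrays averaged as pairs. The medians without array 2, 3 or 4 and in pairs are over the 9 genes other than ID1.

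**Figure D1:**
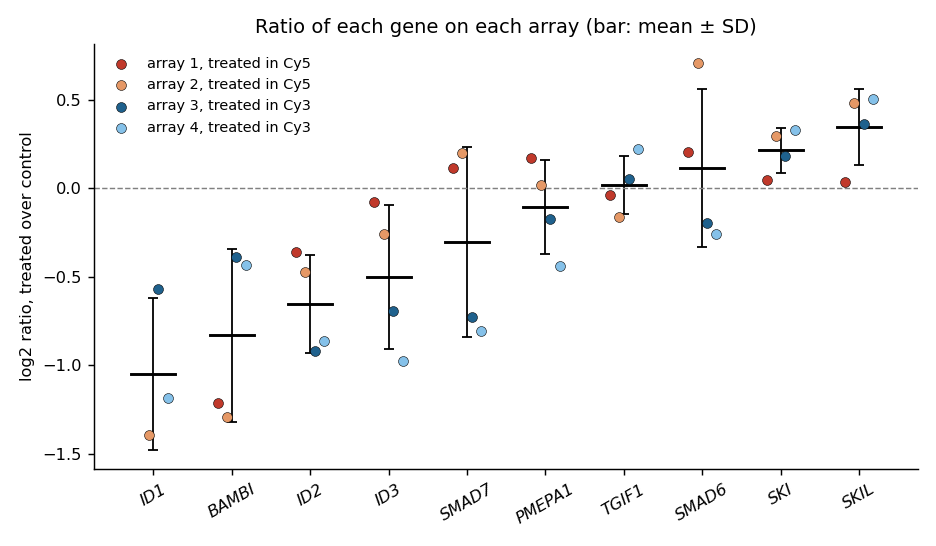
Log2 ratio of treated over control cells (vertical axis) of the 10 genes (horizontal axis, in order of the fitted ratio), 1 point per array; the bar is the mean and the whisker the SD over arrays (n = 4, or 3 for ID1). ID1, BAMBI, ID2 and ID3 lie below 0 on each array shown, SKI and SKIL lie above 0, and SMAD7, PMEPA1, TGIF1 and SMAD6 have points on both sides.

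The ID genes all fell. ID1 had the lowest fitted ratio, which rests largely on array 2, the only array of its orientation that measured it: on the Cy3 pair ID1 (-0.88) and ID2 (-0.89) were alike, and on array 3 ID1 fell the least of the 3. ID1, an inhibitor of differentiation and a standard readout of BMP signalling, had log2 ratios of -1.39 on array 2, -0.57 on array 3 and -1.18 on array 4. Its spot on array 1 was marked as non-uniform and left out, and the ratio there would have been -0.73. The 3 arrays gave -1.05 ± 0.43 (SD, n = 3), and the fit, which weights both orientations equally, gave -1.13 (SE 0.128, limma adjusted p = 0.00052, 95% interval -1.43 to -0.83), a 2.20-fold lower level. The groups did not overlap, since the control intensities of 14.88 to 15.41 (log2, normalized) lay above the treated ones of 13.79 to 14.31. Fewer expressing cells and less RNA per cell cannot be told apart in bulk RNA, for this gene or the others. The ID1 probe lies at chr20:29657819-29657878 on the plus strand of hg18.

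ID2, which is also regulated by other growth signals and pairs with the same E proteins, had log2 ratios of -0.36, -0.47, -0.92 and -0.86 on arrays 1 to 4. All 4 were below 0, and the arrays with treated RNA in Cy3 showed the larger fall. The mean was -0.65 ± 0.28 (SD, n = 4), with an SE of 0.0652 and a limma adjusted p of 0.00019, a 1.57-fold lower level. Control intensities were 13.59 ± 0.12 (log2, SD, n = 4) and treated ones 12.94 ± 0.34, without overlap. The 60 bases of the ID2 probe are spread over chr2:8740093-8740481 (plus strand, hg18), a span of 389 bases, so the probe crosses a gap between aligned blocks.

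ID3 had the smallest fitted change of the ID genes. Its log2 ratios on arrays 1 to 4 were -0.08, -0.26, -0.69 and -0.97. These ratios averaged -0.50 ± 0.41 (SD, n = 4), with an SE of 0.0753 and a limma adjusted p of 0.0013, a 1.41-fold lower level. The first array hardly differed from 0, and the control and treated intensities overlapped, because the treated channel of array 1 (13.35) lay above the control channels of arrays 2, 3 and 4 (13.08 to 13.28). The exact sign-flip p was 0.13 for ID2 and ID3, the smallest that 4 arrays allow, and 0.25 for ID1, the smallest for 3. The ID3 probe (chr1:23758253-23758312, minus strand, hg18) reads part of the coding sequence of the helix-loop-helix domain, the part that binds E proteins. It is shown because the measured signal is hybridisation to these bases, and it shares no run of more than 6 bases with the probe of any other gene of the 10.
ID3 probe: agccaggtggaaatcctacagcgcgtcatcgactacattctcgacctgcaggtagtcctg

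The stretches before the start sites of the 3 ID genes and BAMBI are shown because these genes were lower in both orientations. Motifs are in capitals, and each stretch, from RefSeq on GRCh38.p14, covers the 250 bases before the start. The motifs searched, on both strands, over windows of 300 bases (250 before to 50 after the start) were GTCTAGAC (a SMAD-binding palindrome), GGCGCC (a GC-rich SMAD element), TGACGTCA (a cyclic AMP response element), CCAAT and TATAAA. A site read on either strand is marked, so ATTGG stands for CCAAT and TTTATA for TATAAA. Of 35097 such windows, 0.202% held the palindrome, 19.2% GGCGCC, 1.85% TGACGTCA, 34.6% CCAAT and 11.5% TATAAA. ID1 (chr20:31605039-31605288, plus strand) holds 1 ATTGG and, where TTTATA and TATAAA overlap, a TATA motif that begins at -33, counted from the start site. ID2 (chr2:8681806-8682055, plus strand) holds CCAAT motifs beginning at -172, -122 and -78. ID3 (chr1:23559502-23559751, minus strand) holds none of the 5 motifs, and BAMBI (chr10:28677271-28677520, plus strand) holds 3 GGCGCC motifs and 1 CCAAT.
ID1 promoter: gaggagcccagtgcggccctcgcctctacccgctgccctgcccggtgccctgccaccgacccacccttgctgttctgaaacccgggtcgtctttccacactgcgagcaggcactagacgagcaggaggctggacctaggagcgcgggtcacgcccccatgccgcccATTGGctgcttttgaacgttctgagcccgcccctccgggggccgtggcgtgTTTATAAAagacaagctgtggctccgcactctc
ID2 promoter: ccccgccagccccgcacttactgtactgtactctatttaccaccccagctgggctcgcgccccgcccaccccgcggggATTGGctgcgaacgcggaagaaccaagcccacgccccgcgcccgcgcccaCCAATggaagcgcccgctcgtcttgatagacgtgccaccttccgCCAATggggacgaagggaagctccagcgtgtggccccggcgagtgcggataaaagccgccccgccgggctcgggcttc
ID3 promoter: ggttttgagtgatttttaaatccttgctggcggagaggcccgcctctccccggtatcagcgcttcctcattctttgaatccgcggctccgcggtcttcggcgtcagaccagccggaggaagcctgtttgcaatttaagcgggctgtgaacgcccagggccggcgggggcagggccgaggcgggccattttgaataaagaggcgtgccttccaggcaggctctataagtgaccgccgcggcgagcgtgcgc
BAMBI promoter: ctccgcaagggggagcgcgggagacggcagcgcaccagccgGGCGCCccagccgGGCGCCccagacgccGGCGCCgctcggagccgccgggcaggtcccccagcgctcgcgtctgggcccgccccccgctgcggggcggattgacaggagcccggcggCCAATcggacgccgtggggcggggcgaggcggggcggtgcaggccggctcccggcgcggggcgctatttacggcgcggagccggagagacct
No motif searched was in all 4 windows. A match is only a run of letters, and no occupancy was measured on these arrays.

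BAMBI, a receptor-like protein without a kinase domain that blocks signalling by receptors of the family and is itself switched on by TGF-beta and BMP signals, fell on all 4 arrays. Its log2 ratios were -1.21 and -1.29 on the Cy5 pair of arrays, and -0.39 and -0.43 on the Cy3 pair. The 2 arrays of an orientation agreed closely and the orientations differed (dye term, limma adjusted p = 0.00082). The mean was -0.83 ± 0.49 (SD, n = 4), with an SE of 0.0644 and a limma adjusted p of 5.7e-05, a 1.78-fold lower level. Control intensities of 14.38 to 14.92 (log2) lay above treated ones of 13.44 to 14.04 without overlap. The direction of the dye difference was opposite to that of ID2 and ID3, whose larger falls came with the treated RNA in Cy3. The BAMBI probe lies at chr10:29011557-29011616 on the plus strand of hg18.

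**Figure D2:**
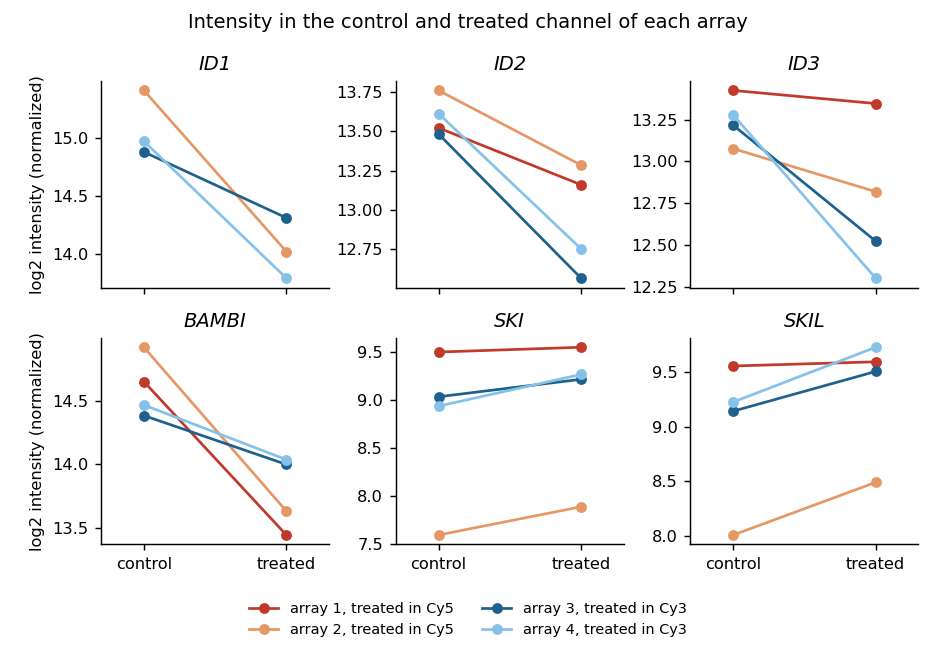
Normalized log2 intensity (vertical axis, scaled separately for each gene) in the control and treated channel of each array for ID1, ID2, ID3, BAMBI, SKI and SKIL; each line joins the channels of 1 array. All lines fall for the first 4 genes, with ratios from -0.08 for ID3 on array 1 to -1.39 for ID1 on array 2, and all lines rise for SKI and SKIL, with array 1 almost level.

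The inhibitory SMADs did not move with the ID genes and BAMBI in both orientations. SMAD7, which binds activated receptors and brings ubiquitin ligases to them, had log2 ratios of 0.11 and 0.20 on arrays 1 and 2 and of -0.73 and -0.81 on arrays 3 and 4. The fit called it lower (-0.31, SE 0.0649, limma adjusted p = 0.0073), although its SD over arrays was 0.54 and its sign depended on the dye orientation. The exact sign-flip p was 0.50. Without array 3 or array 4 the adjusted p of SMAD7 was 0.056 or 0.094, and without background subtraction its fitted ratio was -0.19 (adjusted p = 0.046). The SMAD7 probe (chr18:44700780-44700839, minus strand, hg18) was well above background on 3 of 4 arrays in each channel.

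SMAD6, which mainly restrains BMP signalling and is a BMP target like the ID genes, was not past the threshold. The ratios were 0.21 and 0.71 on arrays 1 and 2, and -0.20 and -0.26 on arrays 3 and 4. They averaged 0.11 ± 0.44 (SD, n = 4), with an interval of -0.09 to 0.32 and a limma adjusted p of 0.341. A fall as large as that of any ID gene lies outside this interval, which counts only the spread within an orientation. Without array 1, SMAD6 was called higher (0.24, limma adjusted p = 0.014). Its probe, placed at chr15:64795864-64860421 (plus strand, hg18), covers a gap in a span of 64558 bases, and its bases are from the coding sequence. Among the promoter windows of these genes, that of SMAD6 alone held the palindrome GTCTAGAC, at -12 to -5.
SMAD6 probe: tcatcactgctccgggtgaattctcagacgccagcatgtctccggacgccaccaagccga

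PMEPA1, a membrane protein that sequesters SMAD2 and SMAD3 and is induced by TGF-beta, had ratios of 0.17, 0.02, -0.17 and -0.44 on arrays 1 to 4. The mean of -0.10 ± 0.26 (SD, n = 4) was not past the threshold (limma adjusted p = 0.297, interval -0.27 to 0.06). The values were above 0 with the treated RNA in Cy5 and below 0 with it in Cy3. Its probe (chr20:55660442-55660501, minus strand, hg18) was well above background on 2 arrays, and under Feature Extraction's processed signals its fitted ratio turned to 0.09.

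SKI and SKIL, relatives that bind SMAD complexes and recruit histone deacetylases, were the genes of the 10 that rose. SKIL, also known as SnoN, is degraded and then re-induced when TGF-beta signals. The log2 ratios of SKIL were 0.04, 0.48, 0.36 and 0.50 on arrays 1 to 4, so that array 1 was near 0 and the others were alike. These gave 0.35 ± 0.21 (SD, n = 4), with an SE of 0.0851 and a limma adjusted p of 0.014, a 1.27-fold higher level. SKI, the founder of the family, had ratios of 0.05, 0.30, 0.18 and 0.33. The mean was 0.21 ± 0.13 (SD, n = 4), with an SE of 0.0724 and a limma adjusted p of 0.047, a 1.16-fold higher level at the edge of the threshold.

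Both rises rest on dim probes, well above background on 2 of 4 arrays in each channel. Control and treated intensities overlapped for both genes: SKI had a log2 intensity of 8.77 ± 0.82 in the control and 8.98 ± 0.74 in the treated channels (SD, n = 4), and SKIL one of 8.98 ± 0.67 and 9.33 ± 0.57. SKI was past the threshold in 5 of 15 and SKIL in 11 of 15 other settings that kept the dye term, with adjusted p-values of 0.0060 to 0.297 and of 4.0e-05 to 0.182. Without array 2, 3 or 4 the adjusted p of SKI was 0.126, 0.130 or 0.297, and without array 3 or 4 that of SKIL was 0.064 or 0.129. The SKI probe lies at chr1:2230742-2230801 and the SKIL probe at chr3:171592788-171592847, both on the plus strand of hg18. The SKIL probe is from the coding sequence of the gene, and its promoter (chr3:170357465-170357714, plus strand, GRCh38.p14) holds the response element TGACGTCA at -54 to -47 and 1 GGCGCC, in capitals; both sequences are shown because SKIL had the largest rise.
SKIL probe: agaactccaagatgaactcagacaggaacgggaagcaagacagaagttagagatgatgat
SKIL promoter: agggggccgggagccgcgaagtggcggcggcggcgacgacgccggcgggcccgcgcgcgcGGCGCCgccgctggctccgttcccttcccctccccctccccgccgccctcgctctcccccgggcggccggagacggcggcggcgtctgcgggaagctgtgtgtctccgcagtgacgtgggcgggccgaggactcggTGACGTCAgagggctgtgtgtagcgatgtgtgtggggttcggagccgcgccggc

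TGIF1, a homeodomain protein that competes with coactivators for SMAD2 and SMAD3, stayed within -0.16 to 0.22 on the 4 arrays. Its ratios were -0.04, -0.16, 0.05 and 0.22, with a mean of 0.02 ± 0.16 (SD, n = 4). The limma adjusted p was 0.858 and the interval -0.14 to 0.17, which leaves room for small changes in either direction. Both channels of TGIF1 were well above background on the 4 arrays, so a dim signal does not limit this value. The probe lies at chr18:3448026-3448079 on the plus strand of hg18.

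Arranged by fitted ratio, the order was ID1, BAMBI, ID2, ID3, SMAD7, PMEPA1, TGIF1, SMAD6, SKI and SKIL. Neighbours in it were mostly not separated beyond the spread of their differences over arrays. The mean difference was 0.345 between ID1 and BAMBI (SD 0.355, n = 3), with BAMBI above ID1 on 3 of 3 arrays, and 0.18 between BAMBI and ID2 (SD 0.76, n = 4), and ID2 lay above BAMBI on 2 of 4 arrays. SKI and SKIL were the pair of neighbours whose mean difference, 0.13, was above its SD of 0.10, with SKIL higher on 3 of 4 arrays. The other neighbours differed by 0.10 to 0.20, each with an SD above that difference.

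A dye term past the threshold was found for 6 of the 10 genes (ID2, ID3, BAMBI, SMAD6, SMAD7 and PMEPA1), which is close to the 58.2% of all tested probes. Orientation means below 0 numbered 5 of the 10 in Cy5 and 7 of the 10 in Cy3, against 46.2% and 47.2% of tested probes. ID1 had a mean of -1.39 in Cy5, from array 2 alone, and of -0.88 in Cy3. For ID2 the means were -0.42 and -0.89, and for ID3 they were -0.17 and -0.83. The sign of all 3 ID genes and of BAMBI was the same in both orientations, as was that of SKI (0.17 and 0.26) and SKIL (0.26 and 0.43). SMAD6, SMAD7 and PMEPA1 were above 0 in Cy5 and below 0 in Cy3, and TGIF1 was the reverse. Without the dye term, which then counts as error, none of the 10 was past the threshold, with limma adjusted p-values of 0.121 to 0.301 for the ID genes and BAMBI and of 0.317 and 0.483 for SKIL and SKI. At an unadjusted p that fit held ID1 (0.0051), ID2 (0.0047), ID3 (0.035), BAMBI (0.0079) and SKIL (0.039) under 0.05, and not SKI (0.110) or SMAD7 (0.221). The part of dye and array quality in these differences was not tested.

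**Figure D3:**
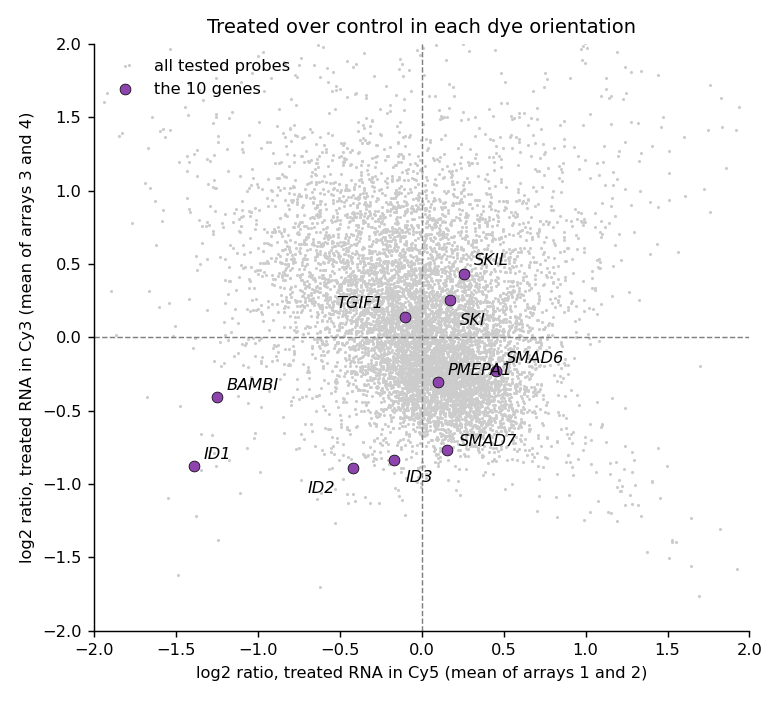
Mean log2 ratio of treated over control with the treated RNA in Cy5 (horizontal axis) and in Cy3 (vertical axis), for all tested probes in grey and the 10 genes in purple; 61 tested probes lie outside the axes. ID1, BAMBI, ID2 and ID3 sit at the lower left, below 0 in both orientations, and SKI and SKIL in the upper right.

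The rest of the pathway was described with 8 lists by role, which together held 84 genes, 78 of them on the array and 45 tested. At a limma adjusted p under 0.05, 16 of the 45 were higher and 9 lower, against 24.3% and 13.0% of all tested probes, with a median log2 ratio of 0.06. For comparison, 65.2% of all called probes were higher under loess and 79.5% when arrays were only centred on their median. Of the 16 higher genes 9 were above 0 on every array, and of the 9 lower ones 8 were below 0 on every array that measured them, against 55.1% of all probes called higher and 50.9% of those called lower. Counts of the single lists below are small and are to be read against the same 24.3% and 13.0%.

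Ligand genes were mostly not detected in these cells: of 11 on the array, 8 were well above background on no array. INHBE, an activin subunit, rose, with ratios of 0.69, 0.81, 0.55 and 0.74 (mean 0.70 ± 0.11, SD, n = 4, limma adjusted p = 0.00017), or by 1.17 with processed signals. The INHBE probe was dim, well above background on 3 arrays in the treated channel and on 2 in the control channel. GDF11, a ligand of the activin branch, fell, with -0.25, -0.35, -0.31 and -0.49 (adjusted p = 0.0046), but was -0.22 (adjusted p = 0.065) with median centring and missed the threshold without array 4 (0.078). TGFB1 was not past the threshold at -0.17 (limma adjusted p = 0.076), being above 0 in Cy5 and below 0 in Cy3.

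Of 11 receptor genes on the array 7 were tested, and 4 were higher and none lower by limma (also 4 and 0 at an unadjusted p under 0.05, or 3 and 1 without array 2), against 24.3% and 13.0% of all tested probes, with a median of 0.22. ACVR1, a type I receptor for BMPs and activins that signals to the BMP SMADs, had ratios of 0.47, 0.61, 1.34 and 1.40, all above 0 and larger in Cy3 (fitted ratio 0.95, SE 0.0661, limma adjusted p = 3.1e-05). ACVR2A, an activin type II receptor, had 0.06, 0.16, 0.94 and 0.92, near 0 on the arrays with treated RNA in Cy5 (fitted ratio 0.52, adjusted p = 0.00049). TGFBR3, a coreceptor, was even across the arrays at 0.27 ± 0.07 (SD, n = 4). BMPR2, named because it completes the count, was called higher at 0.22 but ran from -0.74 on array 1 to 1.08 on array 4. The probes of ACVR2A and BMPR2 were dim, well above background on 2 of 4 arrays in each channel. Requiring both channels above background on all arrays left 2 receptor genes, both higher at an unadjusted limma p under 0.05. The TGF-beta type II receptor TGFBR2 was well above background on no array.

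Among the SMADs that carry the signal, SMAD3 fell and SMAD5 was called higher, while SMAD2 (0.14) and SMAD4 (0.19) were not past the threshold. SMAD3 was even across arrays, at -0.39, -0.43, -0.24 and -0.27 (limma adjusted p = 0.0045), but was -0.21 (adjusted p = 0.081) with median centring and missed the threshold without array 4 (0.066). SMAD5 was not, with -0.62 and -0.12 in Cy5 and 1.21 and 1.14 in Cy3, so its call of 0.40 is not shared by the orientations. SMAD1 and SMAD9 were too dim to test.

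The enzymes and adaptors that tune SMADs and receptors gave 5 of 8 tested genes higher and 2 lower by limma, with a median of 0.30. Of all tested probes 24.3% were higher and 13.0% lower. At an unadjusted p under 0.05 the counts were also 5 and 2. They were 3 and 2 with processed signals, with the series table or without array 3. RNF111 (Arkadia), a ubiquitin ligase that removes SMAD7, SKI and SKIL protein, rose on all 4 arrays, with 0.32, 0.58, 1.21 and 1.40 (fitted ratio 0.88, limma adjusted p = 8.5e-05). NEDD4L, a ligase for activated SMAD2 and SMAD3, rose by 0.44 and PPM1A, a phosphatase of the same SMADs, by 0.39. USP15, a deubiquitinase that stabilises the receptor complex, fell by 0.49 on the log2 scale and STRAP, a partner of SMAD7, fell by 0.40, with array 1 (-0.10) apart from the others. SMURF1 and SMURF2, named to complete the count, were called higher at 0.37 and 0.23 with opposite signs in the 2 orientations.

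Corepressors and coactivators went both ways, 3 of 8 tested higher and 2 lower. EP300, an acetyltransferase that SMADs use as coactivator, rose by 0.50 (0.02, 0.22, 0.73 and 1.03), and HDAC2 fell by 0.42. TGIF2, the close relative of TGIF1, fell by 0.21 on the log2 scale with the least spread of the list, from -0.24 to -0.19 over the 4 arrays (limma adjusted p = 0.029), but its ratio was -0.11 (adjusted p = 0.340) with median centring, -0.17 (0.068) with a loess span of 0.7 and -0.38 with processed signals. SIN3A (0.26) was called higher, but was below 0 on both arrays with treated RNA in Cy3.

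Of 16 other SMAD-responsive genes 7 could be tested, 2 higher and 2 lower, and HES1 fell the furthest. HES1, a repressor of differentiation that Notch and BMP signals induce, had ratios of -1.32, -1.62, -0.36 and -0.58 (fitted ratio -0.97, SE 0.0779, limma adjusted p = 6.6e-05). TSC22D1, a TGF-beta-stimulated leucine zipper gene, fell evenly by 0.27 on the log2 scale. Its ratio was -0.18 (limma adjusted p = 0.127) with median centring, and it missed the threshold without array 3 or array 4. MSX1 (0.45) and KLF10 (0.38), transcription factors induced by BMP and TGF-beta, were called higher, KLF10 with opposite signs in the 2 orientations and MSX1 with array 2 far above the others. Without array 2 MSX1 was 0.24, without array 4 KLF10 was 0.24, and neither was past the threshold with processed signals or the series table. CCN2 and TGFBI, much used readouts of TGF-beta in other cells, were well above background on no array.

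Of 6 tested partners of ID proteins, 1 was lower and none higher by limma (2 and 1 at an unadjusted p under 0.05), against 13.0% and 24.3% of all tested probes. TAL1, the erythroid helix-loop-helix factor, had ratios of -0.04, 0.10, -0.61 and -0.59 (fitted ratio -0.29, adjusted p = 0.011). The E protein genes TCF3 (-0.07), TCF4 (0.08) and TCF12 (0.26) and the TAL1 relative LYL1 (-0.23) were not past the threshold. No extracellular antagonist was called by limma, with FSTL3 at -0.22 and CHRD at -0.04 the ones tested, and 1 had an unadjusted p under 0.05.

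**Figure D4:**
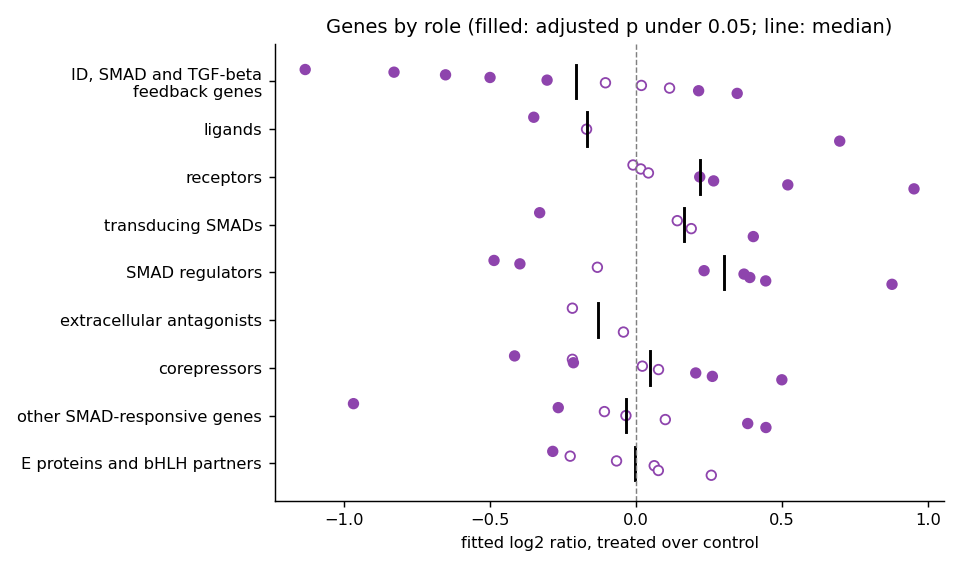
Fitted log2 ratio of treated over control (horizontal axis) of every tested gene by role (rows); filled points had a limma adjusted p under 0.05, open points did not, and the black line is the median of the row. The 10 genes of the top row have a median of -0.20, the 3 tested ligands one of -0.17 and the SMAD regulators one of 0.30.

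The cell type was checked against markers. Of 11 erythroleukemia markers, 10 cleared the background in the control channel of all 4 arrays, with HBZ the brightest, and TAL1 did so on 3. The fibroblast markers COL1A1, COL1A2 and COL3A1, MS4A1 of B cells and KRT5 of epithelium were above background on no array, whereas CD79A (fitted ratio -0.07), EPCAM (-0.22, called lower) and KRT8 (-0.21) were on all 4. Several erythroid regulators were lower in the same fit as the ID genes: NFE2 (-1.31), LMO2 (-1.03), KLF1 (-0.70) and GATA1 (-0.56). HBZ (0.14), HBE1 (-0.03), HBG1 (-0.13) and TFRC (-0.11) were not past the threshold, and EPOR was called higher at 0.22. Their part in the values of the ID genes was not tested.

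Patterns most like those of the extremes were looked up by the root mean square difference of log2 ratios over the arrays, as a description. For SKIL over 4 arrays these were DNAJC3 (0.034), TUBGCP3 (0.044), DYNC1I2 (0.055), CPT2 (0.061) and SCPEP1 (0.063). The ratios of DNAJC3 were 0.04, 0.43, 0.33 and 0.47 on arrays 1 to 4. For ID1 over the 3 arrays that measured it they were IL18RAP (0.095), BMX (0.102), LOC442517 (0.116), SLC40A1 (0.146) and MYB (0.243). IL18RAP had ratios of -1.25, -0.65 and -1.19 on arrays 2 to 4, beside the values of ID1 given above. SLC40A1 encodes the iron exporter ferroportin, and MYB a transcription factor of blood progenitors.

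The 10 genes differed in how often they were called under other ways of processing. With the dye term kept, ID1 was past the threshold in 11 of 11 other settings that could be fitted, and ID2, ID3 and BAMBI in 16 of 16. Several of these settings refit the same ratios and give the same fitted value, so the counts are not independent checks. Their fitted ratios ran from -1.18 to -0.97 for ID1, from -0.85 to -0.81 for BAMBI, from -0.68 to -0.57 for ID2 and from -0.57 to -0.40 for ID3, so each stayed below 0 under every normalization tried. These fits average the orientations. Single orientations lay further apart, at -1.25 and -0.41 for BAMBI and at -0.17 and -0.83 for ID3. SMAD7 was past it in 13 of 15, SMAD6 in 1 of 16, and PMEPA1 and TGIF1 in none, also at an unadjusted p under 0.05.

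**Figure D5:**
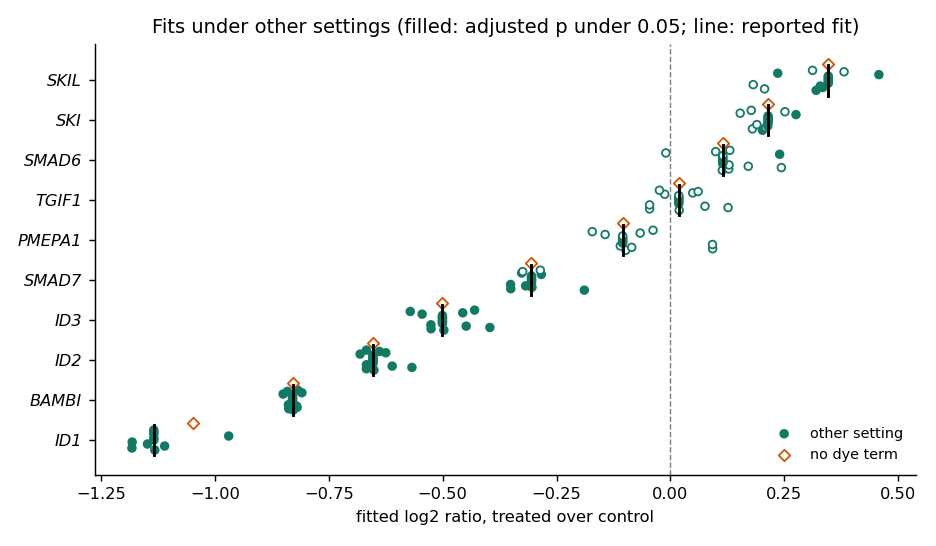
Fitted log2 ratio of treated over control (horizontal axis) of the 10 genes (rows) under the other settings, with 1 point per setting, filled where the limma adjusted p was under 0.05; diamonds are the fit without the dye term, and the black line is the reported fit. BAMBI stays between -0.85 and -0.81, no diamond is filled, and SMAD6, TGIF1 and PMEPA1 have points on both sides of 0.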

How the data were processed

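RNA of treated and control K562 cells was measured on 4 two-colour arrays. The authors scanned them, quantified spots with Agilent Feature Extraction 9.5.1.1 and deposited the mean and background intensity of each spot in both channels, without normalization. The deposited files also hold Feature Extraction's processed intensity and its log10 ratio of Cy5 to Cy3, and the deposited series table holds log10 ratios, which equal those of the scanner files with the sign turned on arrays 3 and 4 (99.9% to 100% of values within 0.001) and so read treated over control. From the deposited intensity values log2 ratios were computed with limma 3.58.1 in R 4.3.3: normexp background correction (offset 50) over all spots, control spots removed, marked spots given no weight, and loess within arrays (span 0.3). Marked spots were 8.08%, 2.18%, 2.33% and 1.57% of gene probes on arrays 1 to 4. Probes with a channel well above background on 2 or more arrays were fitted with a treatment and a dye term on all 4 arrays, with Benjamini-Hochberg adjustment and a threshold of 0.05.

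Of 14297 gene probes 12002 were named through their accession, 302 through a synonym, 1539 by a name in the files that is a current symbol, and 454 kept the file's name. Coordinates of probes are those of the files, on hg18. Promoters come from RefSeq's GRCh38.p14 and were matched by symbol for 9 of the 10 genes (not SKI). Named are the 10 genes, up to 3 genes per list in each direction with the largest changes past the threshold, and the 5 genes most like the highest and the lowest gene; other names complete small counts or were chosen after their values were seen. Some genes of the lists are not reported here. The 10 genes, the lists and the tests were chosen with earlier results of these data known. All arrays shared slide and scan date, so neither could be a block. The alternatives are given in the closing section. The number of arrays limits the precision.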

Additional observations from a re-analysis of the deposited data

Results flagged for a closer look

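Of 31 genes with a value on all 4 arrays that were looked at, 2 had 1 array far from the others. Chance alone marks about 1 in 20 where the 4 values come from 1 normal distribution. Here the arrays fall into 2 orientation pairs, so that rate need not hold. For STRAP, the partner of SMAD7, array 1 (-0.10) stood apart from -0.47, -0.53 and -0.49 on arrays 2 to 4, and the gap made up 0.845 of its range, past Dixon's 95% limit for 4 values. For MSX1, array 2 (1.1) stood apart from 0.27, 0.20 and 0.21, with a gap of 0.920 of the range. The control channel of MSX1 cleared the background on 2 arrays. No cause was tested for either gene.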

How the results depend on the processing

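No paired analysis was possible because each array already sets treated against control RNA and there is a single group of 4 ratios; averaging arrays of opposite dye took its place. Without the dye term the adjusted p was 0.123 for ID1 (-1.05), 0.121 for ID2 (-0.65), 0.301 for ID3 (-0.50), 0.152 for BAMBI (-0.83), 0.631 for SMAD7 (-0.31), 0.483 for SKI (0.21) and 0.317 for SKIL (0.35); 52 probes were higher and 4 lower, and of the 10 genes 0 were called higher or lower (1 and 4 at an unadjusted p under 0.05). That fit counts the difference between orientations as error by construction. SMAD7 turned to 0.16 with treated RNA in Cy5 alone. SKI missed the threshold at 0.18 with Feature Extraction's processed signals, 0.21 with median centring, 0.19 with the series table, and at its reported 0.21 with no filter, outlier spots kept, an intensity-dependent prior and pairs 1 with 3 and 2 with 4. SKIL missed it at 0.21 with processed signals and 0.18 with the series table. Of the 10 genes, 0 were higher with processed signals or the series table (1 in each at an unadjusted p under 0.05), both channels above background (0 unadjusted) or an adjusted p under 0.01, and 1 with median centring, no filter, outlier spots kept, the intensity-dependent prior or pairs 1 with 3. Requiring both channels above background gave 1342 probes higher and, over the 6 genes left, a median of -0.58, by fewer probes; an adjusted p under 0.01 gave 1354 and 468, and median centring 589 lower. Without each replicate in turn SMAD6 ran from -0.010 to 0.24, SMAD7 from -0.33 to -0.28, SKI from 0.15 to 0.28 and SKIL from 0.24 to 0.46, probes higher from 1010 to 2590 and lower from 283 to 1469, and of the 10 genes from 0 to 3 were higher and from 3 to 5 lower, the lowest probe counts without replicate 4. In these fits the lone array of an orientation is assumed to vary like the others. ID1 could not be fitted as pairs or without replicate 2, 3 or 4. No gene had a second probe, so no alternative probe was run. The 22 called pathway genes with the largest changes in their lists were compared across the same settings, and other pathway genes were not. None of the 22 changed sign in a fit over both orientations, though SMAD5, KLF10, SIN3A and TAL1 among them had opposite means in the 2 orientations; all 22 missed the threshold without the dye term, 14 without replicate 4 and 9 without replicate 3. Among them TGFBR3, SMAD5, STRAP, SIN3A, TGIF2, TSC22D1, MSX1 and TAL1 did so without either, and GDF11, SMAD3, NEDD4L, HDAC2 and KLF10 without replicate 4. Median centring ended the calls of GDF11, SMAD3, TGIF2 and TSC22D1, loess with a span of 0.7 that of TGIF2, processed signals those of TGFBR3, KLF10 and MSX1, and the series table those of KLF10 and MSX1. Other causes were not tested. Of the 10 genes, the wide background scatter of arrays 1 and 2 limits SKI, SKIL, SMAD7 and PMEPA1.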
